A study of Homo sapiens with 28 samples.

Results

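The genes described here encode the receptors and the proximal signalling proteins of death receptor apoptosis. They are the TRAIL receptors TNFRSF10A, TNFRSF10B, TNFRSF10C and TNFRSF10D, the FAS receptor, the adaptor FADD, the initiator protease CASP8 and its inhibitor CFLAR. The genes were chosen by symbol, by a rule that uses no measured value, though with earlier results of these data known, and 8 of 8 were found among the 25369 genes of the deposited count tables. RNA was sequenced from LNCaP, an established line from a metastatic human prostate cancer, so that every group is a model in 1 cell line. The 28 libraries formed 7 groups of 4, harvested from 4 independent experiments per the series' design text.

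In each group the cells first received an siRNA, and treatment for 18 h followed from 2 days after transfection. DMSO siCtrl cells carried a non-targeting siRNA and received solvent. TM siCtrl cells carried the same siRNA and received tunicamycin at 2.5 µg/mL, a drug that blocks N-glycosylation and fills the endoplasmic reticulum (ER) with unfolded protein. TM PERKi siCtrl cells received tunicamycin at that dose with 100 nM of GSK2606414, an inhibitor of the ER stress kinase PERK that has also been described to inhibit RIPK1, a kinase of death receptor complexes. TM siPERK-1 and TM siPERK-3 cells carried different siRNAs against EIF2AK3, the gene of PERK, and TM siATF4-2 and TM siATF4-3 cells carried different siRNAs against ATF4, a transcription factor made downstream of PERK. These 4 groups received tunicamycin at 2.5 µg/mL too. No group received a targeting siRNA or the inhibitor without tunicamycin, so what either does to unstressed cells was not measured.

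TRAIL, a secreted or membrane-bound ligand encoded by TNFSF10, binds TNFRSF10A (also called DR4) and TNFRSF10B (DR5), which carry an intracellular death domain. TNFRSF10C and TNFRSF10D bind TRAIL but lack a working death domain and are known as decoy receptors. A bound death receptor, or FAS bound by its own ligand, recruits FADD, FADD recruits procaspase-8, and CFLAR (c-FLIP) competes with procaspase-8 for the complex. In cells under ER stress, TNFRSF10B is known as a target of the transcription factor CHOP, the product of DDIT3, which itself lies downstream of ATF4.

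In brief, tunicamycin raised TNFRSF10B 2.26-fold, raised FAS 1.71-fold and lowered TNFRSF10A to 0.797 of its level in solvent. The siRNAs against PERK and against ATF4 each lowered TNFRSF10B in tunicamycin, and with siATF4-3 its level was near that of the solvent group. The PERK inhibitor did not lower TNFRSF10B, which was 1.18-fold higher with it, and the inhibitor reduced the decoy receptor TNFRSF10D to 0.497 of its level with tunicamycin alone. The adaptor FADD and the protease CASP8 rose 1.23-fold and 1.24-fold with tunicamycin and were not called in any comparison of inhibitor or siRNA with the tunicamycin control.

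The receptor genes of the TRAIL family lie next to each other on chromosome 8 (hg19), at chr8:23048970-23082680 for TNFRSF10A, chr8:22877648-22926700 for TNFRSF10B, chr8:22960327-22974950 for TNFRSF10C and chr8:22993101-23021543 for TNFRSF10D. FAS lies at chr10:90750288-90775542, FADD at chr11:70049269-70053508, CASP8 at chr2:202098166-202152434 and CFLAR at chr2:201980877-202037411. Counts cover exons. Of the exon bases of TNFRSF10C, 24.6% are shared with the gene LOC254896 on the same strand, so its few counts are uncertain. TNFRSF10B shares 1.52% of its exon bases with RHOBTB2 and CFLAR a smaller part with CFLAR-AS1, both on the opposite strand.

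Levels are library-scaled counts (TMM-scaled CPM), given as mean ± SD over n = 4 libraries, and are compared between genes only after division by exon length (CPM per kb). Changes are log2 differences with a standard error (SE) from 1 edgeR quasi-likelihood fit of all libraries, adjusted by the Benjamini-Hochberg method over 14314 genes. The threshold for a call was an adjusted p of 0.05, and each adjusted p printed is from that fit unless another tool is named. Where groups are said not to overlap, the share of all genes with such a separation was not counted. The genes passing the low-count filter included 8 of the 8. Libraries held 10794637 to 17253801 counts. The 10 listed luminal prostate genes (KLK2, KLK3 and others) had counts in every group. The summed level of basal markers was at most 1.49 CPM, of leukocyte markers at most 7.42 CPM and of endothelial markers at most 19.0 CPM. The 7 fibroblast and mesenchymal markers summed to 26.8 to 63.3 CPM. Most of them were detected: 6 had counts in the inhibitor group and 5 in each other group, while COL1A2 was at 0 in every group. The siRNAs lowered their targets: EIF2AK3 fell by 1.86 (siPERK-1) and 2.05 (siPERK-3) on the log2 scale against TM siCtrl, and ATF4 fell by 2.67 (siATF4-2) and 3.73 (siATF4-3).

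RefSeq promoter windows (GRCh38.p14, 250 bases before to 50 after the start) were matched for 4 of the 8 genes, FAS, FADD, CASP8 and CFLAR, which all rose with tunicamycin. The bases before the start are shown for FAS, the most raised of these genes, and for CFLAR, the one that both ATF4 siRNAs lowered, on the plus strand at chr10:88990548-88990797 and chr2:201118466-201118715. Capitals mark the GC box GGGCGG, searched on both strands as CCGCCC too.
FAS: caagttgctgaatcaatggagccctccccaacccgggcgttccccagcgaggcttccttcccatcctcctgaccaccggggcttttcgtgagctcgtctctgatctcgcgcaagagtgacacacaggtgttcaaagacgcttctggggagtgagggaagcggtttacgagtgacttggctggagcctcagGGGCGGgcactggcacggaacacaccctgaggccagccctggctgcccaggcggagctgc
CFLAR: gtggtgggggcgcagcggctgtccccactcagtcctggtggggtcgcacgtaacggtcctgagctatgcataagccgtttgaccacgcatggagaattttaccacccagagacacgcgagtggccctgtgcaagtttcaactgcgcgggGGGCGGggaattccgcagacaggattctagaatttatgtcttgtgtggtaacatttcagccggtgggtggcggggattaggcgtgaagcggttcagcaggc
The GC box was chosen after the data were seen. It occurs in 45.0% of 35116 promoter windows of this length, so 1 match in each of these promoters sets neither apart. The ATF4-CHOP element TGATGNAA, held by 3.62% of all windows on either strand, and the ER stress element (CCAAT, a fixed gap, then CCACG), held by 0.0769%, had 0 matches in the windows of FAS, FADD, CASP8 and CFLAR. That says only that these letters are not in these windows.

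**Figure D1:**
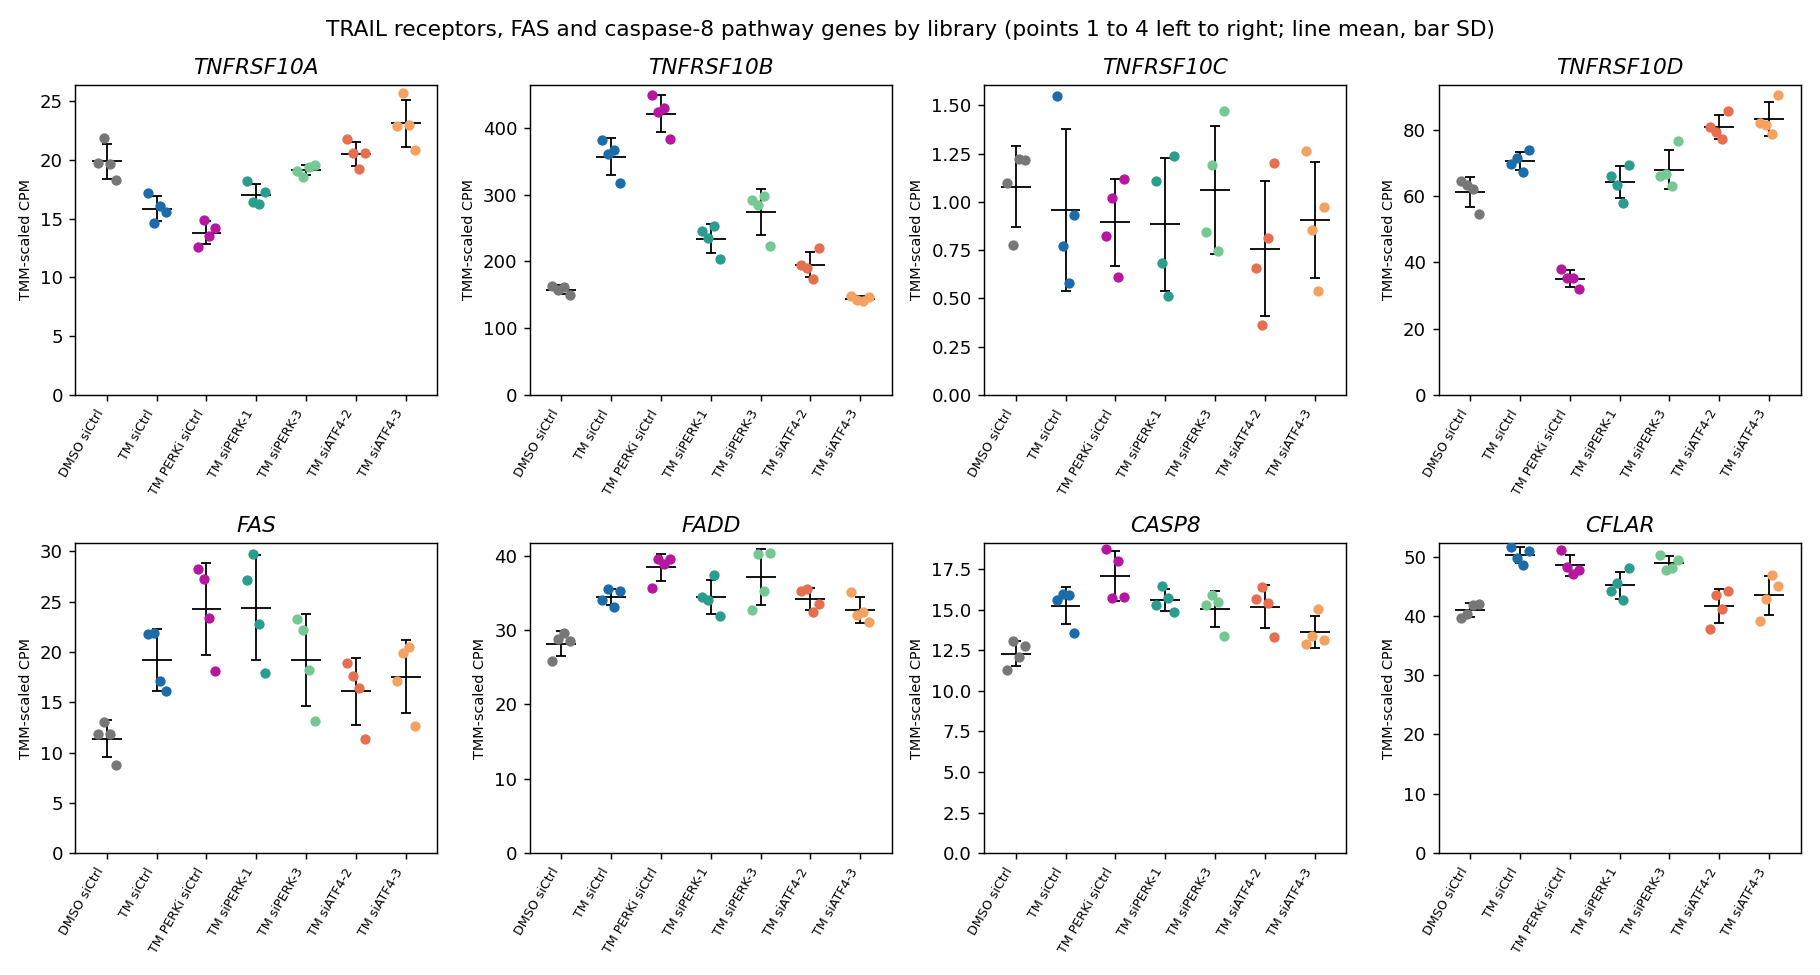
TMM-scaled CPM (vertical axes, from 0) of each gene in each library, by group (horizontal axes); points are the 4 libraries, lines the means and bars the SD. TNFRSF10B is highest in the tunicamycin and inhibitor groups, TNFRSF10D is lowest in the inhibitor group at 35.1 CPM, and TNFRSF10C lies between 0.362 and 1.55 CPM throughout.

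The first comparison asks what tunicamycin did to these genes. With tunicamycin 6 of the 8 rose and 1 fell, in a comparison in which 69.0% of all genes tested were called (34.3% higher and 34.7% lower), so a call by itself is near the background and the sizes carry the description. The median log2 change over the 8 genes was 0.29, against 0.01 over all genes tested.

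TNFRSF10B, the death receptor DR5, was the most abundant of the TRAIL receptors, at 38.0 CPM per kb in solvent against 17.3 for TNFRSF10D and 11.4 for TNFRSF10A. Its level was 164, 157, 161 and 149 CPM in the DMSO siCtrl libraries and 382, 362, 367 and 318 CPM in the TM siCtrl libraries. No solvent library reached any tunicamycin library. The log2 change was 1.18 ± 0.08 (SE, adjusted p = 2.86e-13).

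TNFRSF10A, the other death-domain TRAIL receptor, went the opposite way. It stood at 19.7, 21.9, 19.6 and 18.3 CPM in solvent and at 17.2, 14.6, 16.0 and 15.5 CPM in tunicamycin, and the groups did not overlap. It fell by 0.33 ± 0.07 on the log2 scale (adjusted p = 0.000153). The decoy TNFRSF10D rose by a small amount, from 61.1 ± 4.51 to 70.5 ± 2.82 CPM (log2 change 0.21 ± 0.06, adjusted p = 0.00305). The decoy TNFRSF10C was near the limit of detection, with 5 to 26 counts a library, and its log2 change of -0.15 ± 0.30 was not called (adjusted p = 0.668).

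FAS, a receptor for a different ligand, rose from 11.9, 13, 11.8 and 8.72 CPM in solvent to 21.8, 21.9, 17.1 and 16.1 CPM in tunicamycin. The ranges did not overlap, though each group spread widely, with its library numbered 4 the lowest. The log2 change was 0.77 ± 0.21 (adjusted p = 0.00222). Among the genes of the complex the transcript changes were smaller: FADD rose by 0.29 ± 0.06 (adjusted p = 0.000116), CASP8 by 0.31 ± 0.08 (adjusted p = 0.000967) and CFLAR by 0.29 ± 0.05 (adjusted p = 9.29e-06). For FADD, CASP8 and CFLAR no solvent library reached a tunicamycin library. The summed level of the luminal prostate markers moved with this comparison, from 6291 to 7382 CPM in solvent to 3530 to 3835 CPM in tunicamycin, and 4 of these 10 genes were called higher and 6 lower. The summed fibroblast and mesenchymal markers moved too, from 26.8 to 33.0 CPM up to 48.8 to 54.5 CPM. The part of either in these results was not tested.

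**Figure D2:**
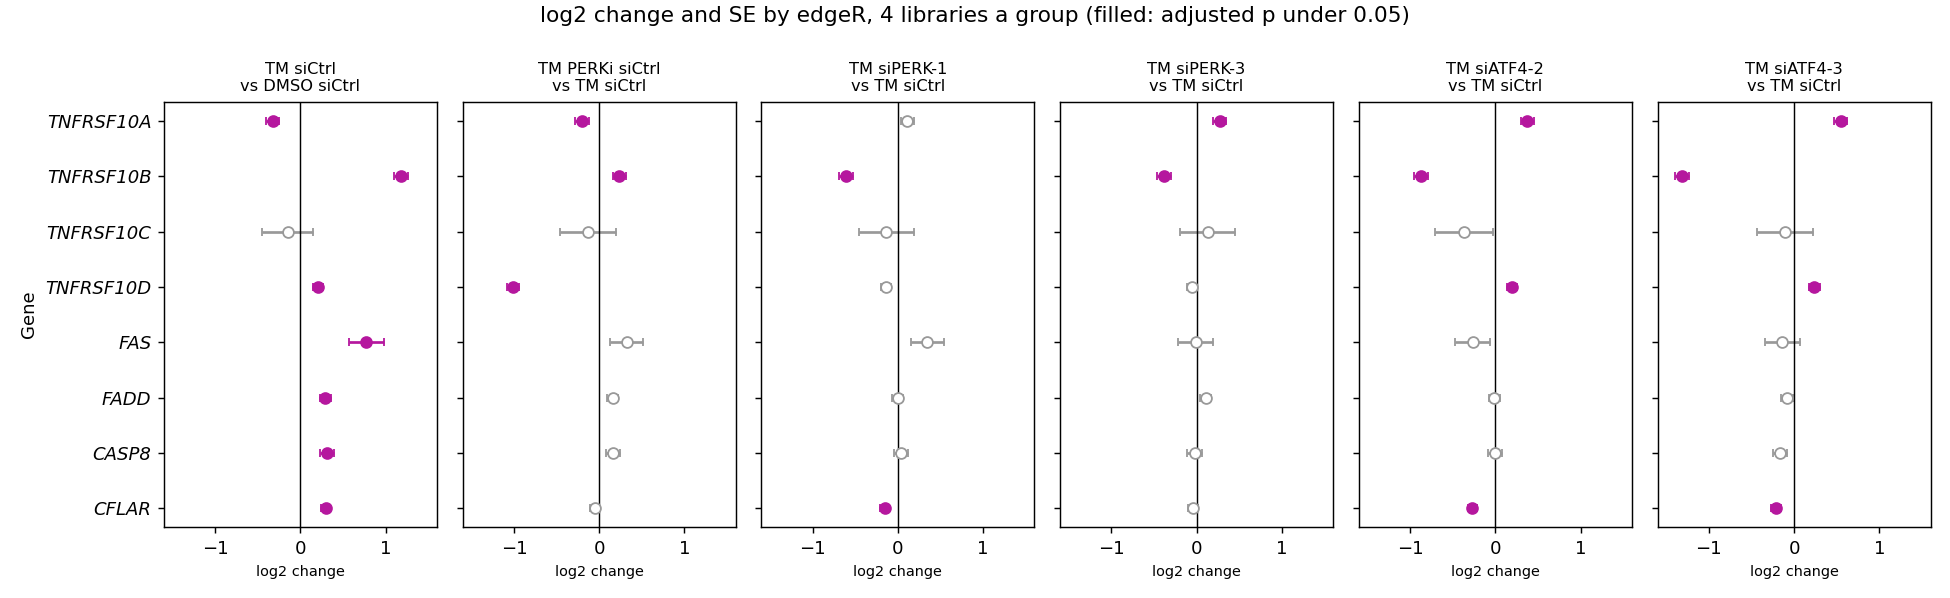
log2 change of each gene (horizontal axes; points with SE bars) in 6 comparisons; filled points have an adjusted p under 0.05. TNFRSF10B runs from 1.18 with tunicamycin to -1.31 with siATF4-3, and TNFRSF10D stands out with the inhibitor at -1.01.

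The PERK inhibitor and the PERK siRNAs address the same kinase in different ways. With the inhibitor 1 of the 8 genes was higher and 2 were lower than with tunicamycin alone, while 35.7% of all genes were called (18.2% higher, 17.5% lower). With siPERK-1 2 were lower (26.4% of all genes called, 13.1% higher and 13.3% lower), and with siPERK-3 1 was higher and 1 lower (26.8%, 13.1% higher and 13.7% lower). Summed fibroblast and mesenchymal markers were at 54.8 to 63.3 CPM with siPERK-1, above the 48.8 to 54.5 CPM of tunicamycin alone. Summed endothelial markers were at 12.8 to 13.5 CPM with siPERK-1 and 15.2 to 19.0 CPM with siPERK-3, both above the 10.2 to 11.4 CPM of tunicamycin alone. Their part in the siPERK results was not tested.

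TNFRSF10B stood at 449, 424, 430 and 383 CPM with the inhibitor, all above the 4 TM siCtrl libraries, and the difference was small (log2 change 0.24 ± 0.08, adjusted p = 0.0186). That call was lost without TM siCtrl replicate 4 (log2 change 0.18, adjusted p = 0.0862) or without TM PERKi siCtrl replicate 1 (0.21, adjusted p = 0.0633). With the siRNAs the receptor went down instead. Its level was 246, 235, 254 and 203 CPM with siPERK-1 (log2 change -0.61 ± 0.08, adjusted p = 1.62e-06) and 292, 284, 298 and 223 CPM with siPERK-3 (log2 change -0.38 ± 0.08, adjusted p = 0.000627). Each siPERK library lay below every TM siCtrl library and above every DMSO siCtrl library.

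Set directly against the mean of the PERK siRNAs, the inhibitor group was higher in TNFRSF10B by 0.73 ± 0.07 on the log2 scale (adjusted p = 5.28e-10), and lower in TNFRSF10D by 0.91 ± 0.06 (adjusted p = 9.94e-16) and in TNFRSF10A by 0.39 ± 0.07 (adjusted p = 1.26e-05). The summed luminal markers were at 2864 to 3175 CPM with the inhibitor, below the 3530 to 3835 CPM of tunicamycin alone (1 gene of 10 called higher and 6 lower against it), and their part in the inhibitor results was not tested. Between the inhibitor and the PERK siRNAs 51.9% of all genes were called (25.8% higher, 26.1% lower). In TNFRSF10B, TNFRSF10D and TNFRSF10A every inhibitor library lay outside the range of the 8 siPERK libraries. The share of all genes with such a separation was not counted.

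TNFRSF10D, the decoy receptor, had the largest change of the 8 genes with the inhibitor. It stood at 69.6, 71.6, 67.2 and 73.8 CPM with tunicamycin alone and at 38.1, 35.2, 35.2 and 31.9 CPM with the inhibitor added, which is also below the lowest solvent library at 54.5 CPM. The log2 change was -1.01 ± 0.07 (adjusted p = 2.09e-15). With siPERK-1 it averaged 64.1 ± 4.87 CPM and with siPERK-3 67.9 ± 5.90 CPM, neither of which was called against TM siCtrl. The siPERK-1 change was called without the libraries numbered 4 (-0.16) and in a fit with the replicate number as a block. The approximate 95% intervals of the log2 changes with siPERK-1 and siPERK-3 ran from -0.26 to -0.02 and from -0.18 to 0.07.

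TNFRSF10A was at 12.6, 14.9, 13.5 and 14.2 CPM with the inhibitor, overlapping the tunicamycin range by a single library. Its fall by 0.20 ± 0.08 sat at the threshold (adjusted p = 0.0499) and was called in 4 of 15 alternatives. Leaving out TM siCtrl replicate 1, 3 or 4, or TM PERKi siCtrl replicate 1, 3 or 4, each ended the call, and over the 15 alternatives the log2 change ran from -0.24 to -0.16 and the adjusted p from 0.0285 to 0.177. With siPERK-3 the gene was higher than with tunicamycin alone (18.6 to 19.6 CPM, log2 change 0.27 ± 0.08, adjusted p = 0.00669). With siPERK-1 the change was 0.11 ± 0.08 (adjusted p = 0.325).

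Transcripts of the signalling genes below the receptors moved little. CFLAR was lower with siPERK-1, at 44.2, 45.6, 42.7 and 48.1 CPM against 51.6, 49.8, 48.6 and 51 CPM (log2 change -0.16 ± 0.06, adjusted p = 0.0325). The groups did not overlap, but the call was lost in 6 of 15 alternatives, among them leaving out TM siCtrl replicate 1, 2 or 4 or TM siPERK-1 replicate 1 or 3, with log2 changes from -0.19 to -0.13 and adjusted p up to 0.113. FADD and CASP8 were not called with the inhibitor (0.16 ± 0.06, adjusted p = 0.0562, and 0.16 ± 0.08, adjusted p = 0.132) or with either PERK siRNA. FADD was called with the inhibitor by DESeq2, with RLE factors and without TM PERKi siCtrl replicate 1 (0.19, adjusted p = 0.0346).

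Between the PERK siRNAs, edgeR called 0 of the 8 genes, and DESeq2 also called 0. Among all genes edgeR called 4.73% (2.24% higher, 2.49% lower). TNFRSF10B was the nearest, lower with siPERK-1 by 0.23 ± 0.08 (adjusted p = 0.112). Without TM siPERK-3 replicate 4, its lowest library, the difference was -0.32 (adjusted p = 0.00331).

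The ATF4 siRNAs gave the largest falls of TNFRSF10B. With siATF4-2 and with siATF4-3, 2 of the 8 genes were higher and 2 lower, against 55.6% of all genes called with siATF4-2 (28.4% higher, 27.2% lower) and 61.9% with siATF4-3 (31.2% higher, 30.7% lower). The genes and directions were TNFRSF10A and TNFRSF10D higher, TNFRSF10B and CFLAR lower, for each siRNA; the siRNAs were compared with the same TM siCtrl libraries.

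In the siATF4-2 libraries TNFRSF10B stood at 195, 191, 174 and 221 CPM (log2 change -0.87 ± 0.08, adjusted p = 4.28e-10), and in the siATF4-3 libraries at 148, 142, 140 and 146 CPM (log2 change -1.31 ± 0.08, adjusted p = 8.16e-14). The siATF4-3 libraries lay entirely below the siATF4-2 libraries, and the direct difference was 0.44 ± 0.08 (adjusted p = 0.000446, with 14.7% of all genes called, 8.53% higher and 6.20% lower). Of the 8 genes, 1 was called in that comparison. Against solvent, the siATF4-2 group was still higher by 0.31 ± 0.08 (adjusted p = 0.00188). The siATF4-3 group was at -0.13 ± 0.08 (adjusted p = 0.169), with all 4 of its libraries just below the lowest solvent library. That difference was called in a fit of the compared groups alone (-0.13) and without the libraries numbered 4 (-0.17). Residual ATF4 differed in the same direction, at 237 ± 82.4 CPM for siATF4-2 against 114 ± 19.0 CPM for siATF4-3 (log2 difference 1.06 ± 0.16, adjusted p = 6.10e-05). Its part in the TNFRSF10B difference was not tested, and other differences between these siRNAs cannot be told apart from it. Fewer cells with a transcript and less of it per cell cannot be told apart in these bulk libraries.

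The full order of TNFRSF10B levels, from the lowest, was siATF4-3 (144 ± 3.63 CPM), solvent (158 ± 6.34), siATF4-2 (195 ± 19.3), siPERK-1 (234 ± 22.3), siPERK-3 (275 ± 34.8), tunicamycin alone (357 ± 27.6) and tunicamycin with the inhibitor (421 ± 27.8). The neighbours siATF4-3 and solvent, and the neighbours siPERK-1 and siPERK-3, did not differ by the test. siATF4-2 and siPERK-1 overlapped and were not tested against each other. The mean of the ATF4 siRNAs was below the mean of the PERK siRNAs by 0.60 ± 0.06 (adjusted p = 5.57e-10, with 63.9% of all genes called, 31.6% higher and 32.3% lower).

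TNFRSF10A was highest in the ATF4 siRNA groups. The siATF4-2 libraries held 21.8, 20.6, 19.3 and 20.6 CPM and the siATF4-3 libraries 22.9, 25.7, 23.0 and 20.9 CPM, above every tunicamycin library in both cases. The log2 changes against TM siCtrl were 0.37 ± 0.08 (adjusted p = 5.59e-05) and 0.55 ± 0.08 (adjusted p = 4.34e-08). Against solvent they were 0.05 ± 0.07 (adjusted p = 0.600, not called) and 0.22 ± 0.07 (adjusted p = 0.00893). Both groups overlapped the solvent libraries. TNFRSF10D was raised by 0.19 ± 0.06 (adjusted p = 0.00723) and 0.24 ± 0.06 (adjusted p = 0.00102), to 80.7 ± 3.60 and 83.1 ± 5.19 CPM, its highest levels in the study. The summed luminal markers were also above tunicamycin alone, at 4092 to 4422 CPM with siATF4-2 (6 genes of 10 called higher, 1 lower) and 4457 to 4671 CPM with siATF4-3 (7 higher, 1 lower), and their part in the siATF4 results was not tested.

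CFLAR, the c-FLIP gene, measured 37.8, 43.5, 41.2 and 44.2 CPM in the siATF4-2 libraries and 39.2, 42.8, 46.8 and 45.1 CPM in the siATF4-3 libraries. All 8 libraries lay below the 4 TM siCtrl libraries, and they overlapped the solvent range of 39.6 to 42.1 CPM. The log2 changes were -0.27 ± 0.06 (adjusted p = 8.18e-05) and -0.21 ± 0.06 (adjusted p = 0.00140). CASP8, the protease that CFLAR holds back, was at -0.01 ± 0.08 (adjusted p = 0.960) and -0.17 ± 0.09 (adjusted p = 0.0881). The CASP8 change with siATF4-3 was called in 4 of 15 alternatives: without TM siCtrl replicate 4 (-0.23, adjusted p = 0.0239), without TM siATF4-3 replicate 3 (-0.22, adjusted p = 0.0422), without all libraries numbered 4 (-0.22) and with upper-quartile factors (-0.20). FADD was at -0.01 ± 0.07 and -0.08 ± 0.07, neither called.

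The make-up of the TRAIL receptor transcripts followed from these changes. Of the summed CPM per kb of the 4 receptor genes, TNFRSF10B held 56.4% ± 0.969 in solvent, 74.3% ± 1.82 with tunicamycin and 84.6% ± 0.758 with the inhibitor added. Its share was 66.4% ± 3.49 and 68.0% ± 4.44 with siPERK-1 and siPERK-3, and 57.2% ± 1.43 and 48.1% ± 0.786 with siATF4-2 and siATF4-3. The decoy TNFRSF10D held 25.6% in solvent, 17.3% with tunicamycin, 8.27% with the inhibitor and 32.6% with siATF4-3. The log2 ratio of the decoy pair to the death-domain pair was -1.46 ± 0.04 in solvent, -2.21 ± 0.15 with tunicamycin, -3.38 ± 0.03 with the inhibitor and -0.99 ± 0.10 with siATF4-3. These are shares of transcript, with no test over the genes, and protein on the cell surface was not measured.

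**Figure D3:**
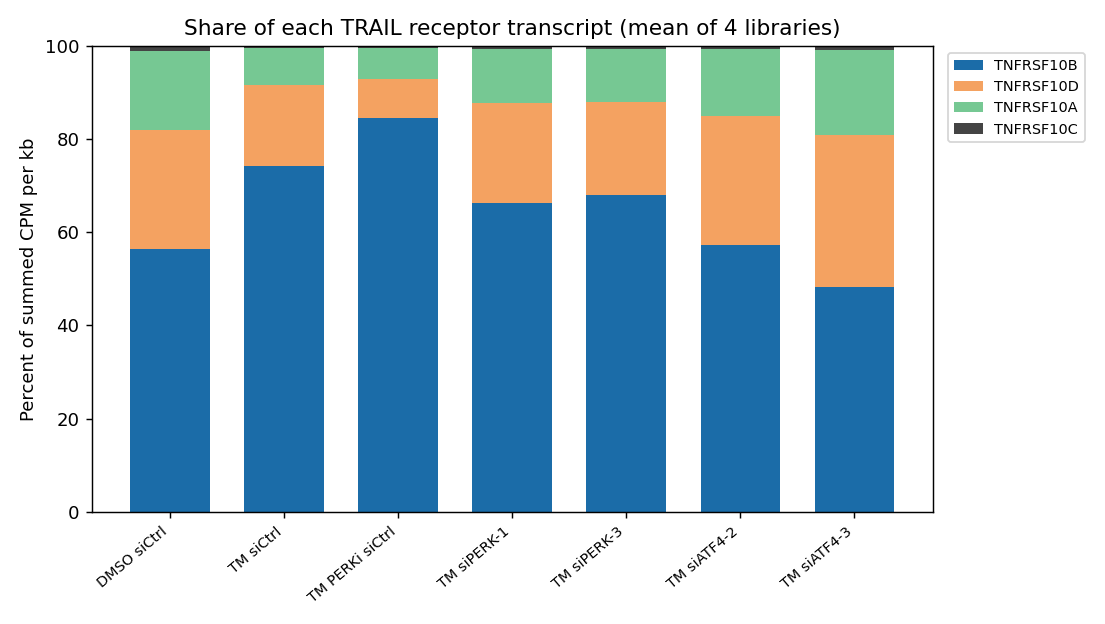
Mean share (percent of summed CPM per kb, 4 libraries a group) of each TRAIL receptor transcript, by group. TNFRSF10B runs from 48.1% with siATF4-3 to 84.6% with the inhibitor, and TNFRSF10C holds at most 1.08% in each group.

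The ratio of CFLAR to CASP8, per kb, was even in solvent and in tunicamycin, with a log2 ratio of 0.00 ± 0.08 and -0.02 ± 0.14. It was lowest with siATF4-2 at -0.29 ± 0.19, and stood at -0.23 ± 0.11 with the inhibitor and -0.21 ± 0.11 with siPERK-1. With siPERK-3 and siATF4-3 it was -0.04 ± 0.13 and -0.07 ± 0.08. The ranges of solvent and inhibitor did not overlap, and those of every other pair of groups did. The level of this ratio depends on the deposited exon lengths, 12191 bases for CFLAR and 3641 for CASP8. Which transcripts of each gene were present was not measured.

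In FAS, the library numbered 4 was the lowest of its group in 7 of 7 groups, on average 0.38 below its group mean on the log2 scale, and the library numbered 2 was above its group mean in all 7. The design text speaks of 4 independent experiments, but no source used here says that a number marks an experiment shared by the groups. FAS stood at 28.2, 27.3, 23.4 and 18.2 CPM with the inhibitor and at 27.2, 29.8, 22.7 and 17.9 CPM with siPERK-1. Both groups overlapped tunicamycin alone, and neither change was called, at 0.32 ± 0.20 (adjusted p = 0.222) for the inhibitor and 0.34 ± 0.19 (adjusted p = 0.207) for siPERK-1. Both were called without the libraries numbered 4 (0.36 and 0.38), and both in a fit with the replicate number as a block.

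The other siRNAs gave no called change of FAS against tunicamycin alone, with -0.01 ± 0.20 for siPERK-3, -0.26 ± 0.21 for siATF4-2 and -0.14 ± 0.21 for siATF4-3. Approximate 95% intervals for these ran from -0.41 to 0.39, from -0.67 to 0.14 and from -0.54 to 0.27. This fit, which has no term for the replicate number, therefore does not exclude changes of moderate size. With the replicate number as a block the fall with siATF4-2 was called. The changes with siPERK-3 and siATF4-3 were called in 0 of 15 alternatives each. The mean of the ATF4 siRNAs was below the mean of the PERK siRNAs by 0.37 ± 0.15 (adjusted p = 0.0328). Over the 23 alternatives the log2 change ran from -0.44 to -0.30 and the adjusted p from 2.38e-07 to 0.0784. That call was lost in 8 of them. These included leaving out siPERK-1 or siPERK-3 replicate 1 or 2, or siATF4-2 or siATF4-3 replicate 4. The call held with the replicate number as a block.

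**Figure D4:**
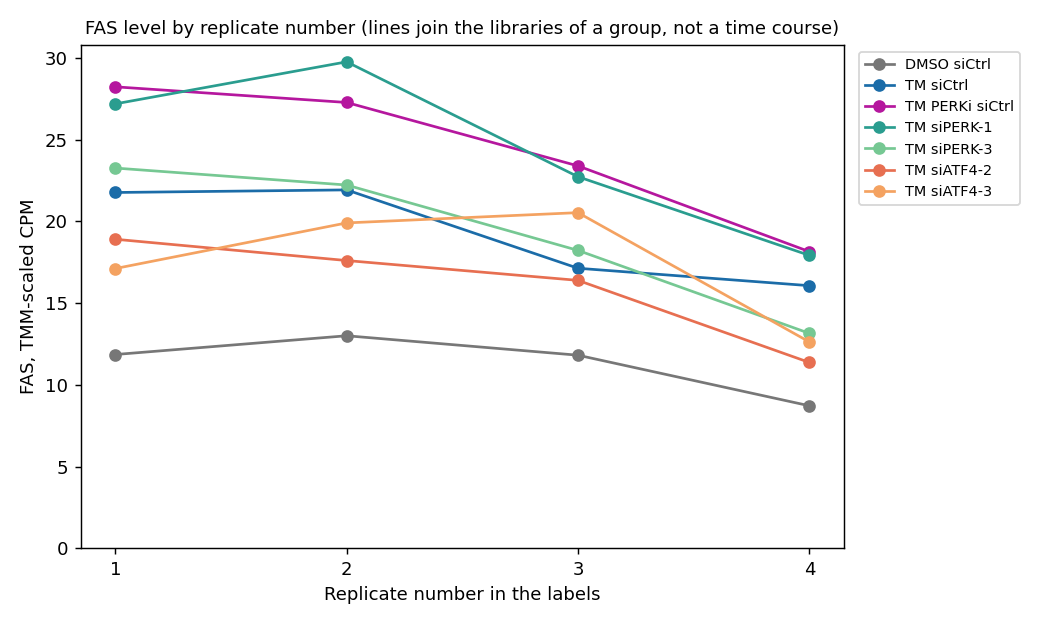
FAS level (TMM-scaled CPM, vertical axis from 0) against the replicate number in the labels, 1 line a group; the numbers are names and no time course. The library numbered 4 is the lowest in 7 of 7 groups, from 8.72 CPM in solvent to 18.2 CPM with the inhibitor.

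Compared with solvent, the groups that had an siRNA or the inhibitor differ in more than 1 thing. Against solvent, 5 of the 8 genes were higher and 2 lower with tunicamycin and inhibitor, where 72.9% of all genes were called (35.0% higher, 37.9% lower). With siPERK-1 they were 5 and 1 (63.9% of all genes, 31.6% higher, 32.3% lower) and with siPERK-3 6 were higher (61.9%, 30.4% higher, 31.5% lower). With siATF4-2 5 were higher (59.7%, 29.7% higher, 30.0% lower) and with siATF4-3 4 were higher (57.4%, 28.1% higher, 29.3% lower; 2 genes without TM siATF4-3 replicate 2). FAS and FADD were higher than solvent in each tunicamycin group. FAS with siATF4-2 (0.51 ± 0.22, adjusted p = 0.0484) was the weakest of these, called in 7 of 15 alternatives. Its log2 changes over them ran from 0.40 to 0.64 and the adjusted p from 1.58e-06 to 0.147. It was not called without DMSO siCtrl replicate 1, 3 or 4 or TM siATF4-2 replicate 1, 2 or 3. FAS with siATF4-3 (0.63 ± 0.22, adjusted p = 0.0158) was not called without DMSO siCtrl replicate 4 (0.52) or TM siATF4-3 replicate 2 or 3 (both 0.56). Over its 15 alternatives the adjusted p ran from 1.18e-08 to 0.0581. Both FAS calls held with the replicate number as a block. CASP8 was higher in 5 of the 6, the exception being siATF4-3 (0.15 ± 0.09, adjusted p = 0.152).

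Among regulators described for TNFRSF10B, DDIT3 (CHOP) rose from 17.8, 17.5, 15.9 and 33.2 CPM in solvent to 259, 273, 309 and 339 CPM in tunicamycin (log2 change 3.79 ± 0.17, adjusted p = 3.30e-15). It was higher still with the inhibitor, at 681 to 777 CPM (1.31 ± 0.14, adjusted p = 1.81e-07). The PERK siRNAs, which lowered TNFRSF10B, left DDIT3 uncalled at 0.18 ± 0.14 (adjusted p = 0.398) and 0.23 ± 0.14 (adjusted p = 0.255). Of the ATF4 siRNAs, siATF4-3 lowered it by 0.89 ± 0.15 (adjusted p = 1.36e-05), and siATF4-2 gave -0.15 ± 0.14 (adjusted p = 0.389). DDIT3 shares 5.77% of its exon bases with MARS on the opposite strand.

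ATF4 transcript rose from 605 ± 85.3 CPM in solvent to 1511 ± 37.4 CPM in tunicamycin, and it was not called with the inhibitor (-0.09 ± 0.15, adjusted p = 0.657) or with siPERK-1 (-0.10 ± 0.15, adjusted p = 0.685). ERN1, the gene of the ER stress sensor IRE1, fell by 0.62 ± 0.08 with siPERK-1 (adjusted p = 8.06e-08) and by 0.59 ± 0.08 with siPERK-3 (adjusted p = 2.20e-07). Over the list of 12 regulators, 8 were higher and 3 lower with tunicamycin (69.0% of all genes called, 34.3% higher and 34.7% lower). With the inhibitor 8 were higher (35.7%, 18.2% higher and 17.5% lower). With siPERK-1 1 was higher and 3 lower (26.4%, 13.1% higher and 13.3% lower), and with siPERK-3 1 and 2 (26.8%, 13.1% higher and 13.7% lower). With siATF4-2 2 were higher and 7 lower (55.6%, 28.4% higher and 27.2% lower), and with siATF4-3 3 and 8 (61.9%, 31.2% higher and 30.7% lower). The list includes ATF4, the target of the ATF4 siRNAs, so its fall in those counts is the knockdown itself.

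**Figure D5:**
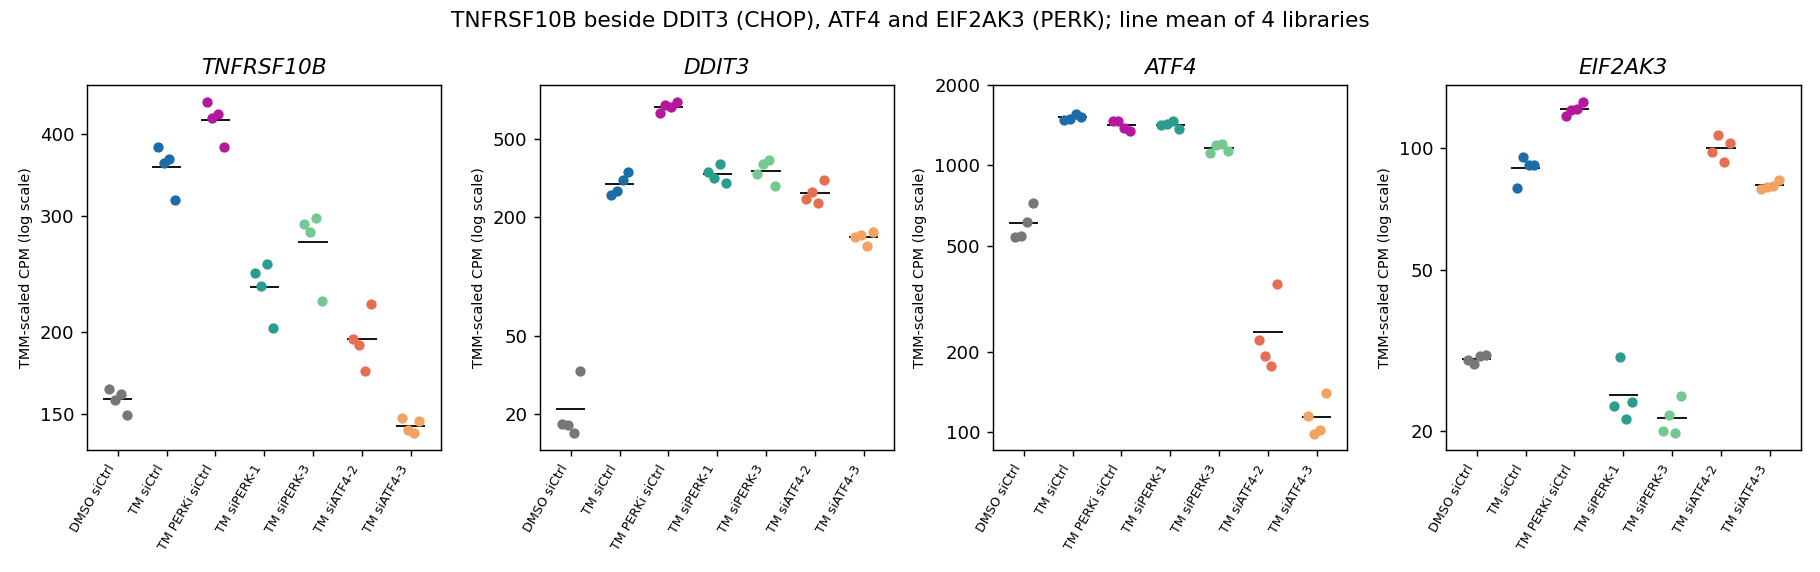
TNFRSF10B, DDIT3, ATF4 and EIF2AK3 in each library (TMM-scaled CPM, log axes), by group; lines are the means of 4 libraries. With the PERK siRNAs TNFRSF10B is at 203 to 298 CPM, below tunicamycin alone, while DDIT3 is at 287 to 390 CPM, overlapping it.

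Transcripts of the ligands of the TRAIL receptors and of FAS were scarce. TNFSF10, the gene of TRAIL, was at 3.14 ± 0.858 CPM in solvent and 3.17 ± 0.564 CPM in tunicamycin, and it was lower with siATF4-2 (-0.57 ± 0.23, adjusted p = 0.0354) and siATF4-3 (-0.65 ± 0.24, adjusted p = 0.0172). FASLG, the ligand gene of FAS, and LTB had at most 1 count in a library, LTA at most 4 and TNF at most 6. TNFSF15, the ligand of the death receptor TNFRSF25, rose from 15.2 ± 1.19 to 65.9 ± 9.09 CPM with tunicamycin (2.11 ± 0.16, adjusted p = 2.35e-11) and fell with each siRNA and with the inhibitor, most with siATF4-3 (-1.94 ± 0.16, adjusted p = 3.31e-10).

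In the list of other death receptors, decoys and related receptors, 3 of 5 tested genes were called with tunicamycin, all higher, where 69.0% of all genes were called and 34.3% were higher. LTBR, a lymphotoxin receptor without a death domain, rose by 0.45 ± 0.05 (adjusted p = 3.15e-11). TNFRSF21 (DR6) rose by 1.75 ± 0.08 (adjusted p = 2.05e-20) and TNFRSF1A, the main TNF receptor, by 1.00 ± 0.05 (adjusted p = 1.31e-19). TNFRSF21 and TNFRSF1A were lower with siATF4-2 (-0.61 ± 0.08, adjusted p = 2.71e-08, and -0.79 ± 0.05, adjusted p = 2.80e-15) and with siATF4-3 (-0.84 ± 0.08, adjusted p = 1.83e-11, and -1.09 ± 0.06, adjusted p = 1.26e-19).

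Adaptors and regulators of the death receptor complexes, 23 tested genes, were called in both directions with tunicamycin, 11 higher and 8 lower, as were all genes tested (34.3% higher, 34.7% lower). The ubiquitin ligase subunit RBCK1 rose by 1.34 ± 0.07 and the ligase BIRC2 (cIAP1) by 1.02 ± 0.06, while the adaptor TRAF2 fell by 0.94 ± 0.07. RBCK1 was lower with the inhibitor, with each PERK siRNA and with each ATF4 siRNA, from -0.46 ± 0.07 with siPERK-3 to -1.47 ± 0.08 with siATF4-3. TNFAIP3 (A20), an inhibitor of NF-kB signalling, was higher than with tunicamycin alone in each of the other groups, by 1.19 ± 0.20 with the inhibitor, 1.33 ± 0.19 with siPERK-1, 1.87 ± 0.19 with siPERK-3, 0.64 ± 0.21 with siATF4-2 and 0.68 ± 0.22 with siATF4-3. CASP10, the closest relative of CASP8, was higher with tunicamycin (0.62 ± 0.15) and lower with siATF4-2 (-0.75 ± 0.16) and siATF4-3 (-0.91 ± 0.17).

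Downstream of CASP8, 5 genes of 16 tested were higher and 8 lower with tunicamycin (all genes: 34.3% higher, 34.7% lower). The caspase inhibitor XIAP rose by 0.98 ± 0.05, while BID, the CASP8 substrate that links to mitochondria, fell by 0.90 ± 0.09. BID was lower still with the inhibitor (-0.36 ± 0.10) and higher with each siRNA, from 0.40 ± 0.10 with siPERK-3 to 0.89 ± 0.09 with siATF4-3. XIAP was lower with the 4 siRNAs, from -0.21 ± 0.05 with siPERK-3 to -0.52 ± 0.05 with siATF4-3, and higher with the inhibitor (0.21 ± 0.05).

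Over the 7 group means, the genes whose profile lay closest to TNFRSF10B among 10603 searched were ERRFI1, ANKRD22 and PYROXD1, with root mean square differences of 0.0767, 0.0779 and 0.0988 log2 units, where TNFRSF10B itself spans 1.54. Closest to TNFRSF10D were GALNT10 (0.0757), EEPD1 (0.102) and GUCY1A3 (0.109), with a span of 1.22. Closest to FAS were GPR89A (0.0891), SNX22 (0.0944) and PDIA5 (0.0982), with a span of 1.04. The other members spanned less than 1 log2 unit and were not searched.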

How the data were processed

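RNA of LNCaP cells was sequenced in 28 libraries. The authors deposited raw read counts over the exons of each gene, in 6 tables. TopHat2 2.1.0, featureCounts 1.5.0-p1, DESeq2 1.10.1 and hg19 are named per the submitters' processing notes; no settings are stated in the sources used here. Libraries were strand-specific per the labels' protocols; whether the counting was, is not stated, so genes that overlap others are uncertain. Columns that recur between tables (0 differing values) entered 1 time. The unnamed line of each table held 0 counts and was dropped. A library of 10794637 counts resolves TNFRSF10C (5 to 26 counts) poorly.

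From the counts, TMM factors and a robust quasi-likelihood F-test (two-sided, group means, filterByExpr with minimum count 10 and total 15) were computed with edgeR 4.0.16 and limma 3.58.1 in R 4.3.3 and adjusted by Benjamini-Hochberg within each of 15 comparisons. The SE is the absolute log2 change over the square root of F. DESeq2 1.42.0, RLE and upper-quartile factors, no low-count filter, fits of the compared groups, a replicate block and each library left out were alternatives; leaving out the libraries numbered 4 together was added after seeing the data. Scripts were tested on simulated data. Ratios and shares of levels have no test. The members and gene lists were chosen with earlier results of these data known. Named genes were all members, the target genes, DDIT3, the death ligands, up to 3 called genes per list, direction and comparison (largest change first, mean log2 CPM at least 1), and for members spanning at least 1 log2 unit the 3 genes with the closest profile; DDIT3, CASP10, BID, XIAP and ATF4 are also given in further comparisons as their own values. Some genes of the lists are not reported here.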

Additional observations from a re-analysis of the deposited data

Results flagged for a closer look

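CASP8 in the TM siCtrl group was flagged because 1 of the 4 libraries stood apart: replicate 4 was at 13.5 CPM, and the others were at 15.6, 15.9 and 16.0 CPM. Its gap was 0.835 of the group's range, just above the 95% critical value of Dixon's test. Of 56 sets of 4 libraries examined (8 genes in 7 groups) 1 was flagged, and chance flags about 1 in 20.

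TNFRSF10B was flagged because the siRNAs against ATF4 differed in their effect on it: the level with siATF4-2 was higher than with siATF4-3 by 0.44 on the log2 scale (edgeR, adjusted p = 0.000446), with the 4 siATF4-2 libraries all above the 4 siATF4-3 libraries.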

How the results depend on the processing

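Of 120 results of a gene in a comparison, 59 were called, and 49 of these were called in every alternative run; of the 61 not called, 49 were called in no alternative. No direction of a called result reversed. The replicate block changed counts of the 8 genes called: from 3 to 5 with the inhibitor against TM siCtrl, from 2 to 4 with siPERK-1, from 0 to 1 between the PERK siRNAs and from 3 to 5 for the inhibitor against the PERK siRNAs; it moved the genes called between the PERK siRNAs from 677 to 1195. Calls added by the block included FAS with the inhibitor (0.33), siPERK-1 (0.34) and siATF4-2 (-0.27), FADD with the inhibitor (0.16) and TNFRSF10D with siPERK-1 (-0.14). The labels do not say that a number marks a shared experiment, so the fit behind the printed calls has no term for it. Correlations of same-numbered deviations ran from -0.01 to 0.30 (medians 0.06 to 0.16 by number, against -0.03 for different numbers). Yet 28 of 28 libraries lay closest to their own number, so libraries of the same number shared some variation. That fit counts the shared variation as error, and results called only with the block remain unsettled. FAS was higher with the inhibitor and with siPERK-1 than in the TM siCtrl library of the same number for 4 of 4 numbers. Without the low-count filter 1 gene was called with siPERK-1. Leaving out the libraries numbered 4 gave 4 with siPERK-1 and 1 between the PERK siRNAs. Leaving out single libraries gave 1 to 3 with the inhibitor (1 without TM siCtrl replicate 4), 1 to 2 with siPERK-1, 0 to 1 between the PERK siRNAs (where 392 to 627 of all genes were called) and 2 to 4 with siATF4-3 against solvent (2 without TM siATF4-3 replicate 2). Counts of all genes called in these settings are given only between the PERK siRNAs. The other counts of the 8 genes are therefore not set against a background. The causes of these shifts were not tested. At 5 to 26 counts TNFRSF10C was imprecise: with tunicamycin its approximate 95% interval ran from -0.73 to 0.43.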
